A study of Homo sapiens with 6 samples.

Results

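Homeobox transcription factors were followed in parental HCT116 cells and in a mutant line derived from them. The genes are those whose symbol starts with HOXA, HOXC or HOXD and a digit, or with PBX, MEIS, DLX, MSX, IRX, LHX, NKX or PAX and a digit, and the sine oculis homeobox genes (SIX2 to SIX6 here). The rule reads symbols alone and uses no measured value, and it does not check that a gene holds a homeobox. It found 75 of the 18417 genes measured, 70 of them coding for proteins and 5 of them noncoding RNAs or pseudogenes. HCT116 is an established human colorectal carcinoma line, and both groups were grown in McCoy's 5A medium with serum. The 3 parental arrays carry the genotype label parental, and the 3 mutant arrays come from an HCT116 derivative labelled as a mutant with altered DNA methylation. The labels name neither the mutated gene nor the number of clones, so what the mutation does and any other difference of the derived line cannot be told apart. The question put to the data is what the mutation does to gene expression.

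Homeobox proteins bind DNA through a shared fold, the homeodomain, and set the identity of cells along the body axis and within organs. HOX genes lie in clusters and mark position from head to tail, and PBX and MEIS proteins, of the TALE class, bind DNA together with them. Sine oculis, DLX, MSX, IRX, LHX, NKX and PAX factors pattern organs such as the eye, limb, brain, heart and kidney. Many of their promoters lie in CpG islands that are targets of Polycomb repression and often gain DNA methylation in colorectal cancer. DNA methylation was not analysed here.

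Each gene is given by 1 probe set, as a log2 value from robust multi-array average (RMA), so a difference of 1 is a doubling. RMA compresses differences of dim probe sets, and levels of different genes are not compared because probes differ in brightness. Array medians lay between 6.88 and 6.93. Arrays of different groups correlated at 0.988 to 0.989 and arrays of one group at 0.995 to 0.996, across probe sets, which are not independent replicates. Of 12 colorectal epithelium markers, EPCAM, KRT8, KRT18 and KRT19 had parental means of 12.15 to 13.32, above the array medians. CDH1, CDX2 and CDX1 also lay above them, at 10.2, 8.52 and 7.12. CDH17, LGR5, CEACAM5, VIL1 and KRT20 had parental means below the array medians, at 4.26, 4.30, 5.05, 5.76 and 5.87. CDH1, KRT8, KRT18 and KRT19 were lower in the mutant and 0 of the 12 were higher. The summed log2 level of the 12 ran from 101.6 to 101.8 in parental arrays and from 97.91 to 99.29 in mutant arrays, and its part in the results below was not tested. Of 24 measured markers of fibroblasts, leukocytes, endothelium, nerve and muscle, PDGFRB alone was called, at 0.27. Their summed levels, parental against mutant, were 34.13 to 34.50 against 34.05 to 34.44 for 6 fibroblast markers, 30.30 to 30.39 against 30.63 to 30.69 for 5 leukocyte markers and 22.24 to 22.80 against 22.06 to 22.39 for 4 endothelial markers. For 5 neural and 4 muscle markers they were 32.98 to 33.54 against 33.68 to 34.06 and 29.02 to 29.69 against 29.19 to 29.66. DCN, LUM and PTPRC had means under 4 in both groups. CD68, ACTA1, COL1A1, DES, MYOG and MAP2 had parental means above the array medians, at 9.19, 8.56, 8.30, 7.605, 7.37 and 7.19. The other markers of these lists lay below the medians.

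Most of the homeobox genes were not called, as was the case for most genes measured, and a few changed by a moderate amount. Of the 75 genes, 11 rose, 5 fell and 59 did not pass (limma, Benjamini-Hochberg adjusted p under 0.05 over all probe sets). The called share was 21.3%, against 25.9% of all 18417 genes. By direction, 14.6% of all genes rose and 11.3% fell. These shares are the comparison for every count by family or list below, though they are not repeated beside each. No family or list was tested as a set. Among the 47 members with a mean log2 of at least 7, 10 rose and 3 fell, where 36.5% of all such genes were called (20.9% higher, 15.6% lower). Among the 28 dimmer ones, 1 rose and 2 fell, where 9.52% of all such genes were called (4.83% higher, 4.69% lower). The median change was -0.03, against 0.00 for all genes. Changes of at least 1.5-fold were found for 4 called members, MSX2, HOXA2, MSX1 and PAX6, where 7.22% of all genes were called at that size. Groups did not overlap for 28 members, and for 45.8% of all genes. Of the 59 members not called, 12 had groups that did not overlap and 9 had an unadjusted limma p under 0.05. When the test required a fold of 1.2, MSX2, HOXA2, MSX1 and PAX6 kept their calls and the other 12 called members lost them.

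**Figure D1:**
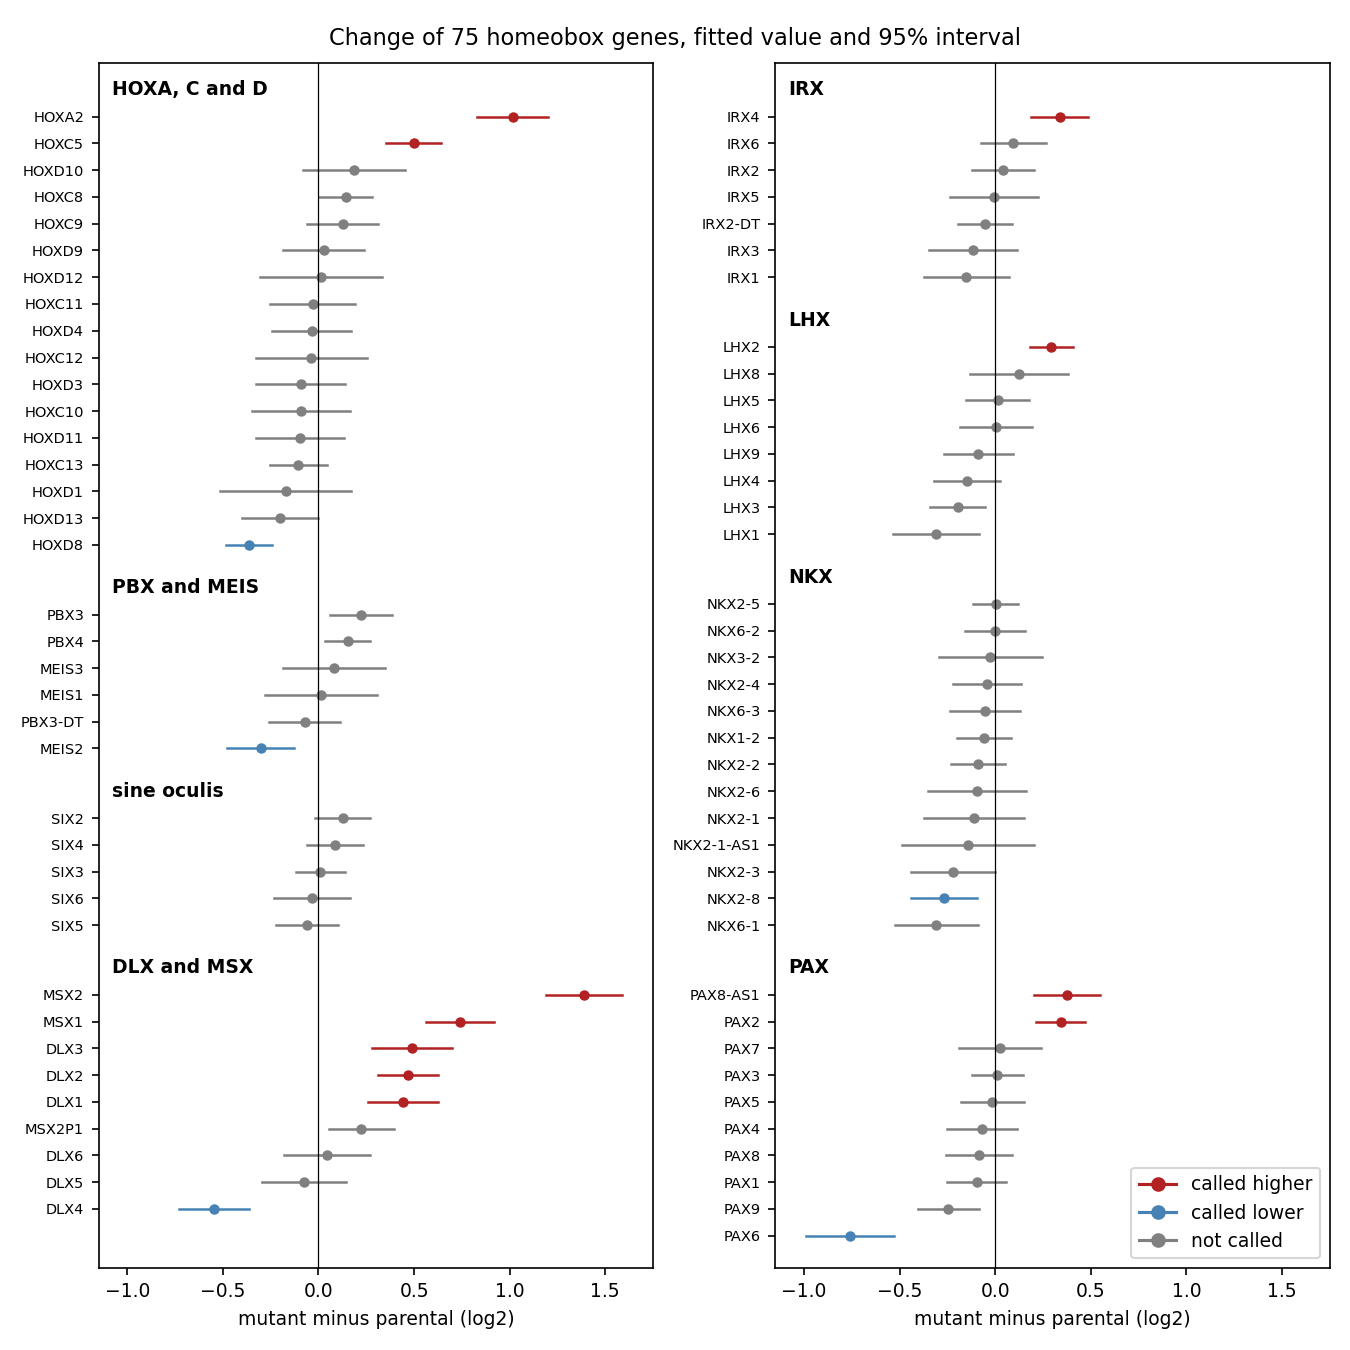
Mutant minus parental change on the log2 scale (horizontal axis) of the 75 genes by family, with points for fitted values and lines for 95% intervals from limma, 3 arrays per group. MSX2 (1.39) and HOXA2 (1.02) lie farthest to the right and PAX6 (-0.76) farthest to the left, and 59 genes are grey, not called.

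**Figure D2:**
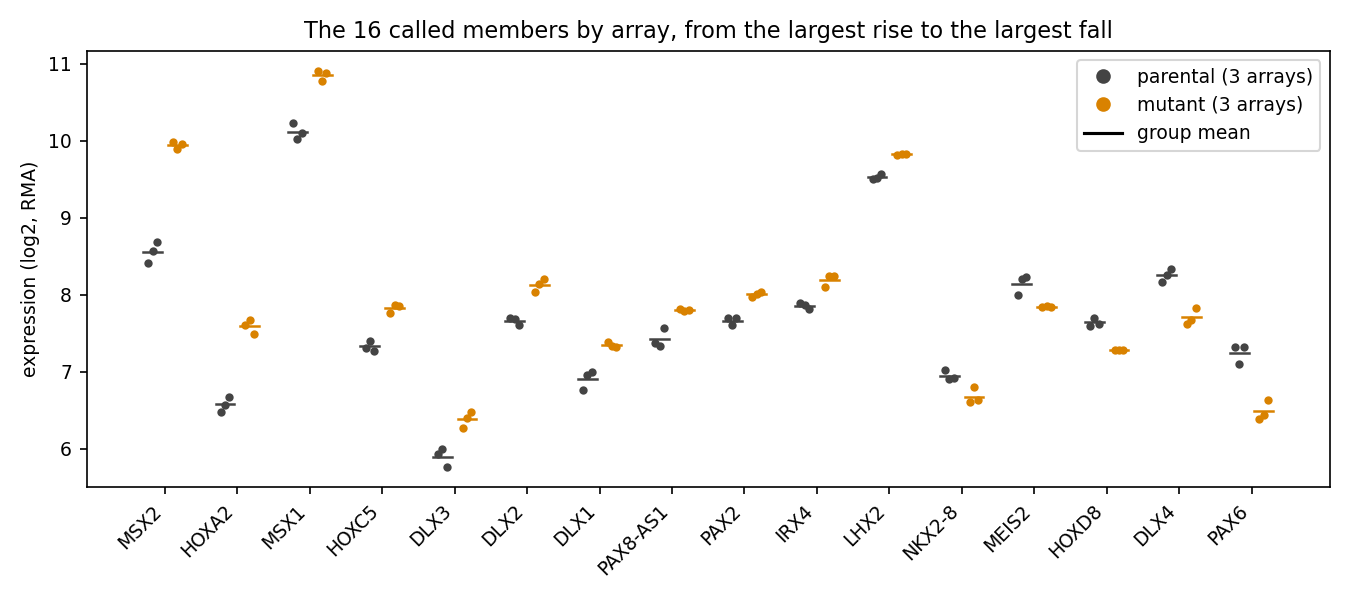
Log2 expression of the 16 called members in each of the 3 parental and 3 mutant arrays (points) with group means (lines), ordered by change. The groups do not overlap for any of the 16 genes, from MSX2 on the left to PAX6 on the right. These genes were selected by calls on the same values, and groups did not overlap for 45.8% of all genes.

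Among HOXA, HOXC and HOXD genes, HOXA2 and HOXC5 rose and HOXD8 fell, and 14 of 17 measured did not pass. HOXA2, which patterns the hindbrain and the second pharyngeal arch (probe set 8138718, chromosome 7), read 6.47, 6.57 and 6.68 in parental arrays and 7.60, 7.68 and 7.49 in mutant arrays. Every mutant array stood above every parental array. The parental mean was 6.57 ± 0.10 and the mutant mean 7.59 ± 0.09 (SD, n = 3 arrays each), a difference of 1.02 ± 0.08 (SE) or 2.02-fold (limma adjusted p = 0.000493). The 20 nearest measured genes that are not members, all with a mean log2 of at least 7, had a median change of -0.02, with 2 higher and 4 lower. No other HOXA gene had a probe set of its own here, so the rest of that cluster was not analysed. The 200 bases upstream of the HOXA2 start (chr7:27102684-27102883, GRCh38.p14, minus strand) are shown because this is the only one of the 17 HOXA, HOXC and HOXD genes past 1.5-fold, with CG dinucleotides, the sites of DNA methylation, in capitals.
HOXA2: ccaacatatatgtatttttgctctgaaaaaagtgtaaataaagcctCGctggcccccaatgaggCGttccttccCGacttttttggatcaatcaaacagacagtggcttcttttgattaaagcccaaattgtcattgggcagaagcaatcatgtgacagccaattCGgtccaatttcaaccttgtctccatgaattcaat
This window holds 4 CG dinucleotides, where the median over 27303 RefSeq promoter windows of that length was 9.

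In the HOXC cluster the measured genes were 7. HOXC5, a factor of cervical and thoracic identity (probe set 7955887, chromosome 12), read 7.31, 7.40 and 7.27 in parental arrays and 7.76, 7.86 and 7.85 in mutant arrays. The groups did not overlap, and the difference was 0.50 ± 0.06 (SE; limma adjusted p = 0.00255). In the RefSeq annotation HOXC5 overlaps HOXC4, HOXC6 and MIR615, so signal from these transcripts may not be fully separated. A probe set shared by HOXC6 and HOXC4 changed by 0.31 (adjusted p = 0.0437), with means of 7.20 ± 0.14 and 7.51 ± 0.05 (SD, n = 3 arrays each). Next along the cluster, HOXC8 gave 0.14 (adjusted p = 0.161) and HOXC9 0.13 (adjusted p = 0.347). Farther on, HOXC10, HOXC11, HOXC12 and HOXC13 gave -0.09, -0.03, -0.04 and -0.10, with adjusted p-values of 0.643, 0.880, 0.888 and 0.331. The values were thus largest at HOXC5 and near 0 from HOXC10 on; this order was noticed in the data and was not tested.

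In the HOXD cluster, on chromosome 2, 1 of 9 measured genes passed. HOXD8 (probe set 8046546), a factor of trunk identity, read 7.59, 7.70 and 7.62 in parental arrays and 7.28 in each of the 3 mutant arrays. The mutant arrays all lay below the parental ones, with a difference of -0.36 ± 0.05 (SE; limma adjusted p = 0.00458). HOXD13, which shapes the digits, read 7.66, 7.43 and 7.39 against 7.32, 7.26 and 7.29, a difference of -0.20 (adjusted p = 0.162) that did not pass although the groups did not overlap. HOXD1, HOXD3, HOXD4, HOXD9, HOXD10, HOXD11 and HOXD12 gave changes from -0.17 to 0.19, and their groups overlapped. Across the 14 HOXA, HOXC and HOXD genes not called, the 95% intervals spanned -0.51 to 0.45. In the HOXB cluster, on chromosome 17, 8 of 10 measured genes fell and 0 rose, with a median of -1.09, against medians of -0.03 for HOXC and -0.09 for HOXD. Parental means ran from 6.28 to 10.07 in HOXB, from 6.22 to 8.09 in HOXC and from 5.07 to 8.23 in HOXD. RMA compresses differences of dim probe sets, and the difference between clusters was not tested.

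**Figure D3:**
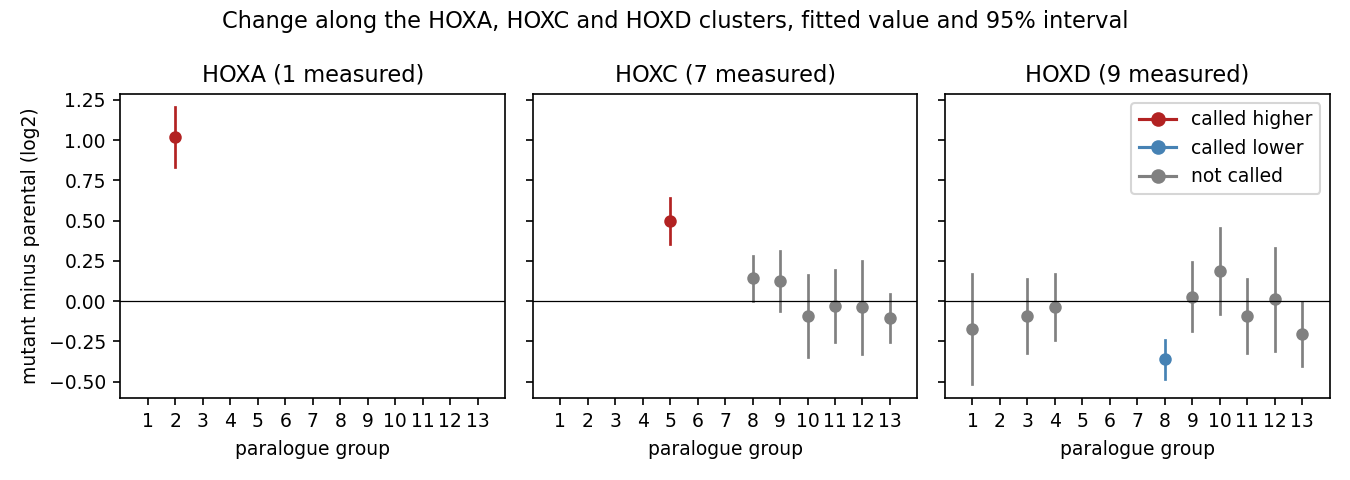
Mutant minus parental change on the log2 scale (vertical axis, with 95% intervals) against the paralogue number of each measured HOXA, HOXC and HOXD gene. HOXA2 and HOXC5 lie above 0 at 1.02 and 0.50, HOXD8 lies below at -0.36, and the remaining 14 genes are not called.

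Of the PBX and MEIS families, whose proteins lend HOX proteins DNA specificity, MEIS2 was called lower and 5 of 6 members did not pass. The noncoding PBX3-DT, 1 of the 6, gave -0.07 (limma adjusted p = 0.621). MEIS2 (probe set 7987385, chromosome 15) read 8.00, 8.21 and 8.22 in parental arrays and 7.84, 7.85 and 7.84 in mutant arrays, a difference of -0.30 ± 0.07 (SE; limma adjusted p = 0.0334). Parental replicate 1 lay nearest the mutant arrays. The call was lost when any one of 5 arrays was left out, all but parental replicate 1, with adjusted p-values of 0.0917 to 0.111. PBX3, an HOX cofactor on chromosome 9, read 9.20, 9.28 and 9.34 against 9.47, 9.43 and 9.59 (difference 0.22, adjusted p = 0.0693). Its 20 nearest measured genes had a median change of 0.27, with 12 higher and 0 lower, and their part in the value was not tested. PBX4 gave 0.15 (adjusted p = 0.0834), with a 95% interval of 0.04 to 0.27, and MEIS3 gave 0.08 (adjusted p = 0.707). MEIS1 was dim in both groups, at 4.07 and 4.08. Outside the PBX, MEIS and IRX families, 3 of 5 other TALE genes were called, where 25.9% of all genes were. MKX, a factor of tendon cells, fell by 2.44, with means of 9.80 ± 0.04 and 7.35 ± 0.04 (SD, n = 3 arrays each; limma adjusted p = 6.22e-06), a difference larger than that of any of the 75 genes. TGIF1, a repressor of TGF-beta responses, fell by 0.48 and its relative TGIF2 rose by 0.32.

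The sine oculis factors, SIX2 to SIX6, which act with EYA and DACH proteins in eye, ear and muscle development, showed no call. SIX4 read 10.14, 10.21 and 10.16 in parental arrays and 10.33, 10.17 and 10.26 in mutant arrays, with overlapping groups. SIX2, a factor of kidney progenitors, read 8.96, 8.97 and 8.82 against 9.05, 9.05 and 9.03, a difference of 0.13 (limma adjusted p = 0.219). SIX3, SIX5 and SIX6 changed by 0.01, -0.06 and -0.03. The 95% intervals of the 5 genes spanned -0.23 to 0.27, so changes beyond those bounds fell outside every interval. All 7 measured partners (EYA1 to EYA4, DACH1, DACH2 and SOBP) also failed to pass in limma, with changes from -0.11 to 0.17 and 1 of them at an unadjusted p under 0.05. Among SIX2 to SIX6, 0 had an unadjusted p under 0.05.

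The DLX and MSX genes, related factors of limb, tooth and craniofacial development, held 6 of the 16 calls. Of 9 measured, the pseudogene MSX2P1 included, 5 rose, 1 fell and 3 did not pass, with a median change of 0.44. Among all genes 14.6% rose and 11.3% fell, and the family was not tested as a set. MSX2 (probe set 8110084, chromosome 5), known as a target of BMP signalling, read 8.41, 8.56 and 8.69 in parental arrays and 9.98, 9.89 and 9.96 in mutant arrays. The mutant values lay more than 1 log2 unit above the highest parental one. The parental mean was 8.55 ± 0.14 and the mutant mean 9.94 ± 0.05 (SD, n = 3 arrays each), a difference of 1.39 ± 0.08 (SE), or 2.62-fold (limma adjusted p = 0.000216). MSX1 (probe set 8093852, chromosome 4), required for teeth and palate, read 10.23, 10.02 and 10.10 against 10.91, 10.78 and 10.88. Its groups were also apart, with a difference of 0.74 ± 0.07 (SE), or 1.67-fold (adjusted p = 0.00130). The nearest 20 measured genes had median changes of -0.03 around MSX2 and 0.07 around MSX1. MSX2P1, a pseudogene of MSX2 on chromosome 17 whose similar sequence could share signal with it, gave 0.22 (adjusted p = 0.0811) with non-overlapping groups, among neighbours with a median of -0.45.

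DLX genes lie as neighbouring couples, and the calls of the 3 couples differed. On chromosome 2, DLX1 and DLX2, with 0 coding genes between them in RefSeq, both rose. DLX1, which directs interneuron development (probe set 8046373), read 6.76, 6.96 and 6.99 in parental arrays and 7.38, 7.33 and 7.32 in mutant arrays. DLX2 (probe set 8056784) read 7.69, 7.69 and 7.60 against 8.04, 8.14 and 8.21. In neither gene did the groups overlap, and the differences were 0.44 ± 0.07 (SE; limma adjusted p = 0.00965) and 0.47 ± 0.06 (adjusted p = 0.00436), with a median of 0.00 over 20 neighbours. On chromosome 17, DLX3 and DLX4, again with 0 coding genes between them, were called in opposite directions. The probe set of DLX3 is dim, with every value below the array medians. DLX3, a factor of skin and placenta (probe set 8016609), read 5.93, 6.00 and 5.76 against 6.27, 6.40 and 6.48, and rose by 0.49 ± 0.09 (SE; adjusted p = 0.0117). DLX4 (probe set 8008228) read 8.17, 8.25 and 8.33 against 7.62, 7.67 and 7.82, and changed by -0.55 ± 0.08 (SE; adjusted p = 0.00456). The 20 genes nearest to both had a median of -0.35, with 0 higher and 14 lower, so DLX4 moved with them and DLX3 against them; the part of this stretch of chromosome 17 in the values was not tested. On chromosome 7, DLX5 and DLX6 gave -0.07 and 0.05, with overlapping groups.

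The upstream windows of MSX1, MSX2, DLX1 and DLX2 are shown because these 4 related genes all rose, and DLX3, which also rose, had no RefSeq window here. CG is again in capitals, over 200 bases ending at the base before the start. MSX1 lies at chr4:4859465-4859664 (plus strand), MSX2 at chr5:174724382-174724581 (plus), DLX1 at chr2:172085307-172085506 (plus) and DLX2 at chr2:172102901-172103100 (minus), all GRCh38.p14.
MSX1: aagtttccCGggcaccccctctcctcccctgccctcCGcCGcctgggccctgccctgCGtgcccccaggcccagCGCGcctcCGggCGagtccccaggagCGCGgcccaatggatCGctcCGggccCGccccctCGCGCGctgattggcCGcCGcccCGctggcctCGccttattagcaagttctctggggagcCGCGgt
MSX2: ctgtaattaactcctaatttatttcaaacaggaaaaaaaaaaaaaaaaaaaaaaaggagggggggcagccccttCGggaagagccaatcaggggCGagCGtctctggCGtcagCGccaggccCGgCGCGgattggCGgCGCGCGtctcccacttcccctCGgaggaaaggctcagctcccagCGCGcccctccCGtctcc
DLX1: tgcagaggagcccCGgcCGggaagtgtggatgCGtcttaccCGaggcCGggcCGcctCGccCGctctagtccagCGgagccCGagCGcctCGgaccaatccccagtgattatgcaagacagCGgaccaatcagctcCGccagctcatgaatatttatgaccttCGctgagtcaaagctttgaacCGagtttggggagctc
DLX2: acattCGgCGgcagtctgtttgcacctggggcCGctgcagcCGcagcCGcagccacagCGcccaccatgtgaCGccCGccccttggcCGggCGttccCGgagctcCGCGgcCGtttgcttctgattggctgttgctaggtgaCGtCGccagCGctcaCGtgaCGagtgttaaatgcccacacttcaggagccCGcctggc
They hold 22, 16, 16 and 20 CG dinucleotides, against 4 upstream of HOXA2. The letters CCAAT, on either strand, occur in all 4 windows and in 28.9% of 27303 promoters, and in 53.8% of the 52 members with a window. The homeodomain core TAATTA occurs upstream of MSX2 and of HOXD3 and HOXD11, which were not called, in 5.77% of the members with a window and 3.44% of all promoters. For TGATNNAT, a PBX and HOX motif, the share was 5.14% of all promoters, and 5.77% of the members with a window held it, namely HOXA2 and, not called, HOXD11 and LHX4. Median CG numbers were 16 for the 10 members that rose, 21 for the 4 that fell and 17.5 for the 38 not called. Each motif was counted on both strands and on its own, overlaps between motifs included, and a match is a description of letters.

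IRX genes, which pattern heart and neural tissue in clusters on chromosomes 5 and 16, gave 1 call among 7 members. The noncoding IRX2-DT, 1 of the 7, gave -0.05 (limma adjusted p = 0.620). IRX4, a factor of the heart ventricle (probe set 8110865), read 7.89, 7.87 and 7.81 in parental arrays and 8.10, 8.24 and 8.24 in mutant arrays. The groups did not overlap, and the difference was 0.34 ± 0.06 (SE; limma adjusted p = 0.0124), with 0.0524 when mutant replicate 2 was left out. Its neighbours in the cluster, IRX1 and IRX2, gave -0.15 and 0.04, and IRX3, IRX5 and IRX6 gave -0.12, -0.01 and 0.10, all with overlapping groups. IRX4-AS1 overlaps IRX4 in RefSeq and was not analysed.

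Of the LIM homeobox factors, 1 of 8 was called. LHX2, which acts in hair follicle stem cells and the forebrain (probe set 8157751, chromosome 9), read 9.50, 9.52 and 9.56 in parental arrays and 9.81, 9.83 and 9.83 in mutant arrays. The rise was 0.29 ± 0.05 (SE; limma adjusted p = 0.00710), and its 20 neighbours had a median of 0.22, with 9 higher and 0 lower; their part was not tested. Elsewhere on that chromosome LHX6 gave 0.00 among neighbours with a median of 0.30, and LHX3 gave -0.20 (adjusted p = 0.0689) among neighbours with a median of 0.36, 13 of them higher. LHX3, needed in the pituitary, read 7.51, 7.55 and 7.60 against 7.29, 7.35 and 7.43, so its groups were apart. LHX1 gave -0.31 (adjusted p = 0.0707), and -0.39 (adjusted p = 0.0400) without mutant replicate 1. LHX4, LHX5, LHX8 and LHX9 lay between -0.15 and 0.12. Of 13 LIM partners and relatives, 4 rose and 0 fell, where 14.6% of all genes rose and 11.3% fell. SSBP2 rose by 0.53 and LMX1B, on chromosome 9, by 0.37, and the count was 2 without any one array other than parental replicate 1.

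**Figure D4:**
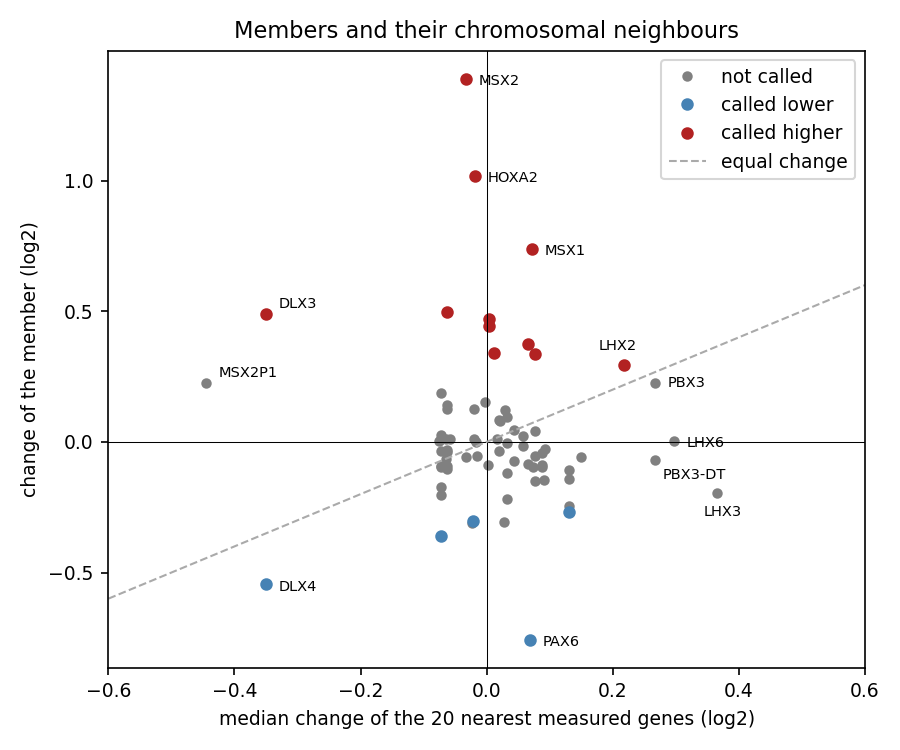
Change of each of the 75 members (vertical axis, log2) against the median change of its 20 nearest measured genes outside the families, with a mean log2 of at least 7 (horizontal axis, log2). MSX2, HOXA2, MSX1 and PAX6 lie over neighbours near 0, and most genes of chromosomes 9 and 17, labelled, over neighbours far from 0, with DLX3 and DLX4 above and below the same value of -0.35.

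NKX genes, among them factors of lung, thyroid, pancreas and heart, gave 1 call among 13 members, the noncoding NKX2-1-AS1 included. NKX2-8 (probe set 7978686, chromosome 14) read 7.02, 6.91 and 6.92 in parental arrays and 6.60, 6.80 and 6.63 in mutant arrays, a difference of -0.27 ± 0.07 (SE; limma adjusted p = 0.0489). The groups did not overlap, but the call was lost in 12 of 18 alternative analyses, including those without any one array other than mutant replicate 2 (adjusted p-values of 0.100 to 0.137). The adjacent PAX9 gave -0.24 (adjusted p = 0.0509), with groups apart, and -0.29 (adjusted p = 0.0391) without parental replicate 1. NKX2-1, on the other side, gave -0.11 (adjusted p = 0.584), and the 20 neighbours of these 3 genes had a median of 0.13. NKX6-1, of pancreatic beta cells, read 7.97, 7.89 and 7.84 against 7.70, 7.42 and 7.66 (difference -0.31, adjusted p = 0.0630). NKX2-3, a factor of gut mesenchyme, gave -0.22 (adjusted p = 0.169), and adjusted p = 0.0225 without parental replicate 3. NKX2-5, the heart factor, read 8.46, 8.40 and 8.41 against 8.41, 8.41 and 8.47, with a 95% interval of -0.11 to 0.12. The other NKX changes lay between -0.14 and 0.00.

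PAX genes, whose proteins carry a paired domain and govern eye, kidney and muscle formation, gave 3 calls among 10 members. The noncoding PAX8-AS1 is among the 10 and among the 3. PAX6, the eye and islet factor (probe set 7947338, chromosome 11), read 7.31, 7.10 and 7.32 in parental arrays and 6.38, 6.44 and 6.63 in mutant arrays. All mutant arrays were below all parental ones, with means of 7.24 ± 0.13 and 6.49 ± 0.13 (SD, n = 3 arrays each). The change was -0.76 ± 0.09 (SE), 1.69-fold lower (limma adjusted p = 0.00313), among 20 neighbours with a median of 0.07. PAX6 overlaps ELP4 and PAX6-AS1 in RefSeq. Its upstream window (chr11:31817962-31818161, GRCh38.p14, minus strand) is printed because PAX6 fell most among the 75 genes, and it holds 17 CG dinucleotides.
PAX6: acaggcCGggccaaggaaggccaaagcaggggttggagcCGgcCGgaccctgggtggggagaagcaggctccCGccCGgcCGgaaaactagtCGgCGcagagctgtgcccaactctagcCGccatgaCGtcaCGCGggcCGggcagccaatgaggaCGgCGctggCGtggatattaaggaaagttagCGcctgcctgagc
PAX2, a factor of kidney development (probe set 7929840, chromosome 10), read 7.69, 7.60 and 7.69 against 7.97, 8.01 and 8.03. It rose by 0.34 ± 0.05 (SE; adjusted p = 0.00656), with groups apart.

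PAX8-AS1, a noncoding RNA that overlaps PAX8 on chromosome 2 (probe set 8044605), read 7.38, 7.34 and 7.57 in parental arrays and 7.82, 7.79 and 7.80 in mutant arrays. It rose by 0.38 ± 0.07 (SE; limma adjusted p = 0.0147), and adjusted p-values were 0.0518 to 0.0529 without parental replicates 1 or 2 or mutant replicates 1 or 2. PAX8, the thyroid factor on the same stretch, read 8.00, 8.13 and 8.00 against 7.93, 7.88 and 8.06, a difference of -0.08 (adjusted p = 0.522). The sources used here do not say how the probes treat strand, so the 2 genes may not be fully separated. PAX1, PAX3, PAX4, PAX5 and PAX7 gave -0.10 to 0.02 with overlapping groups.

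Of 21 measured Trithorax and Polycomb genes, chromatin regulators that keep HOX genes on or off, 6 rose, 4 fell and 11 did not pass, with a median change of 0.06. All had group means of at least 8.01, and among all genes with a mean of at least 7, 20.9% rose and 15.6% fell. The histone demethylase gene KDM6A rose by 0.51 (limma adjusted p = 0.00137) and the methyltransferase gene KMT2D by 0.33 (adjusted p = 0.00773). JARID2, a Polycomb partner, fell by 0.74 (adjusted p = 0.000411) and PHC2 fell by 0.64 (adjusted p = 0.00420). Among the other called genes, the Polycomb genes EZH2 and EED rose by 0.32 and 0.20. KDM6B and KMT2A rose by 0.21 and 0.19, and EZH1 and PHC1 fell by 0.48 and 0.36. The number that rose was 3 when any one array was left out. Of 13 genes of retinoic acid supply and CDX inputs, 2 rose and 1 fell. RXRA, a nuclear receptor on chromosome 9, rose by 0.39, CRABP2, a retinoic acid carrier, rose by 0.35, and ALDH1A3, which makes retinoic acid, fell by 0.47. Of 5 Groucho corepressors, TLE1 fell by 1.18 (adjusted p = 0.00262) and the others did not pass.

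Of 77 homeobox genes outside these families, 4 rose and 5 fell, with a median change of -0.04. The called share was 11.7%, against 21.3% for the 75 members and 25.9% for all genes. The difference was not tested, and the 77 genes were not split by brightness. ZEB1, a repressor of epithelial genes, rose by 0.55 (limma adjusted p = 0.00543) and ZFHX3 rose by 0.38. SATB1, a chromatin organiser, fell by 1.80 (adjusted p = 0.000693) and ZHX2 fell by 0.72. The number that fell was 3 when any one array was left out.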

How the data were processed

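Expression was measured on Affymetrix whole-transcript arrays in 3 parental and 3 mutant HCT116 samples, 100 ng of total RNA each. The authors deposited log2 values per probe set, with RMA and Partek named in the submitters' processing notes without versions. RMA makes array distributions alike and removes differences in total RNA. No depth applies to arrays; their number limits the precision. Values were used as deposited.

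Of 33297 probe sets, 19460 have 1 symbol in the platform annotation, 1754 several and 12083 none. Each gene was taken from its single-symbol probe set with the highest mean, without a filter on low values, and each member had 1. RefSeq (GRCh38.p14) lists 114 genes under the rule; 5 had only shared probe sets and 34 no named one here.

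All probe sets were fitted with limma 3.58.1 (lmFit, eBayes, two-sided) in R 4.3.3, and p-values were Benjamini-Hochberg adjusted over all of them. The fit was tested on simulated data. Python 3.11.15, pandas 2.3.3, numpy 2.4.6 and matplotlib 3.10.9 did the rest. Named genes are all called members, members with a group mean of at least 7, and the brightest of each symbol prefix. Up to 2 called genes per other list and direction are also named. Other members, and the Trithorax and Polycomb genes past 2 per direction, are named after their values were seen. Members and lists were chosen with earlier results of these data known. RefSeq promoter windows matched 52 of 75 members. The 18 alternatives changed normalization, filters, variance model, weights, replicate block, minimum fold, probe set choice or left out 1 array. The labels do not say whether replicates were separate cultures, and p-values reflect the spread among these arrays alone, possibly a technical one.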

Additional observations from a re-analysis of the deposited data

How the results depend on the processing

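Of the 16 called members, 4 (MSX1, MSX2, HOXA2 and PAX6) kept their call in all 18 alternatives, 12 lost it in 1 or more and 0 reversed. DLX1, DLX2, DLX4, HOXC5, HOXD8, LHX2 and PAX2 lost it only with the minimum fold of 1.2. DLX3 lost it in 2 alternatives, IRX4 in 3, PAX8-AS1 in 5, MEIS2 in 8 and NKX2-8 in 12. With a minimum fold of 1.2 in the test, which is stricter by construction, 3 members rose and 1 fell, and 1442 of the 4773 genes were left. The 5 members that fell became 9 with a mean log2 of at least 5 or 6, with probe sets of 1 symbol only or with a gene's probe sets averaged, all of which adjust over fewer rows. They became 8 with array weights and 3 with an ordinary linear model; the cause was not tested.

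Leaving out each array gave 9 to 11 members higher, 3 to 5 lower (3 without parental replicate 2 or mutant replicate 3) and 3198 to 3627 genes. The members' median change of -0.03 then ran from -0.050 to 0.019, turning positive without parental replicate 1 or mutant replicate 2.

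Same-numbered arrays did not deviate together (r = 0.04, -0.01 and 0.00). These values cannot tell whether same-numbered samples shared a culture or day, which the labels do not say. With the replicate block 9 members rose and 3 fell, DLX3, IRX4, MEIS2 and NKX2-8 losing their calls.

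Across alternatives, LIM partners that rose ranged from 0 to 4 (4 reported), Trithorax and Polycomb genes that rose from 1 to 7 (6) and fell from 2 to 4 (4), retinoic acid genes that rose from 0 to 4 (2), and other homeobox genes that rose from 0 to 6 (4) and fell from 2 to 6 (5). Of the 59 members not called, 8 were called in some alternative (LHX1, LHX3, MSX2P1, NKX2-3, NKX6-1, PAX9, PBX3 and PBX4). Probe brightness near background limits what RMA can show for MEIS1, LHX8 and PAX3, and likewise for HOXD10 and HOXD3.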

Other observations

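Probe sets that carry 2 symbols entered no gene count. The probe sets shared by PBX2 and its pseudogene PBX2P1 changed by 0.16 (8083221, limma adjusted p = 0.163) and 0.18 (8125360, adjusted p = 0.139). PBX2 is a HOX cofactor, and these probe sets read 10.51 to 10.67 and 10.27 to 10.46 in parental arrays against 10.73 to 10.83 and 10.53 to 10.59 in mutant arrays, without overlap in either. The probe sets shared by MEIS3 and MEIS3P1 changed by 0.16 (8005132, adjusted p = 0.194) and 0.12 (8005695, adjusted p = 0.220). MEIS3's own probe set gave 0.08.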
